A study of Mus musculus with 8 samples.

Results

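The collagen genes of the mouse spleen were taken as all protein-coding genes of the count table whose symbol is Col, a number, the letter a and a number. This gave 44 genes of the 52636 in the table: 11 for fibrillar chains, 6 for chains of collagen IV, the collagen of basement membranes, and 27 others. Expression was measured by RNA sequencing of whole spleens from C57BL/6 mice aged 6 weeks, in 4 groups of 2 samples each. The groups were Lmna R527C mutants 7 days after 4 Gy of irradiation, wild type 7 days after 4 Gy, unirradiated mutants at day 0 and unirradiated wild type at day 0. Lmna encodes the A-type lamins of the nuclear envelope, and the study's design text asks by what route the mutation brings about senescence. The labels do not say whether mutants carried 1 or both copies of the allele, and name no cell type to which the mutation is restricted.

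Collagens are secreted proteins of 3 chains wound into a triple helix, and they form much of the extracellular matrix. Fibrillar chains, such as those of types I, III and V, assemble into banded fibres, whereas collagen IV chains join into the sheet-like network of basement membranes. In the spleen, fibrillar collagens are known from the capsule, the trabeculae and the fine reticular fibres of the pulp, which stromal cells make, and collagen IV from the basement membranes of vessels and sinuses. Other collagens decorate fibrils, form beaded filaments or anchoring fibrils, or span the cell membrane.

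The promoters of the most abundant chain of each of the 2 main classes are shown with those of their closest partners in level, because Col4a1 and Col4a2 share 1 promoter region while Col1a2 and Col3a1 lie on different chromosomes. Each window runs 5′ to 3′ on the gene's own strand from 250 bases before to 50 bases after the RefSeq start (GRCm38.p6), and capitals mark matches to 3 motifs on either strand. The motifs were the GC box (GGGCGG or CCGCCC), the CCAAT box (CCAAT or ATTGG) and the TATA box (TATAAA or TTTATA). The windows are chr6:4505368-4505667 on the + strand for Col1a2, chr1:45311288-45311587 on the + strand for Col3a1, chr8:11312777-11313076 on the - strand for Col4a1 and chr8:11312555-11312854 on the + strand for Col4a2.
Col1a2: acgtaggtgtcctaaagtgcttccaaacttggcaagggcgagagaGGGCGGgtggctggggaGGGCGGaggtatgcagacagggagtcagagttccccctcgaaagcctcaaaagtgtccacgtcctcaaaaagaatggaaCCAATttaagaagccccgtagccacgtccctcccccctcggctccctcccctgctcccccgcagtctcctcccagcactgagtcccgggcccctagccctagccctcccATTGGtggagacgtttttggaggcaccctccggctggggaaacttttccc
Col3a1: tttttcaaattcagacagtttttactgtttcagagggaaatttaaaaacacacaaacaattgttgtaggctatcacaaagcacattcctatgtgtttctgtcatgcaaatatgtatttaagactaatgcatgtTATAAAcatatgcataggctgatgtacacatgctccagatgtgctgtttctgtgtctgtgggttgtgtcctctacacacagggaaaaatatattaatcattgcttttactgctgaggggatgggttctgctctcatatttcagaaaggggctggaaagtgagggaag
Col4a1: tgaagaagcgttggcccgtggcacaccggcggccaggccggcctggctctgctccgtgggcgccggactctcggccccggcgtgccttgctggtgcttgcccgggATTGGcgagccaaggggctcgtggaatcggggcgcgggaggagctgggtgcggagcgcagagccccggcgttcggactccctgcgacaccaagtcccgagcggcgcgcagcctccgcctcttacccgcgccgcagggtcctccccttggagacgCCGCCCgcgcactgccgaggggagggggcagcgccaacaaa
Col4a2: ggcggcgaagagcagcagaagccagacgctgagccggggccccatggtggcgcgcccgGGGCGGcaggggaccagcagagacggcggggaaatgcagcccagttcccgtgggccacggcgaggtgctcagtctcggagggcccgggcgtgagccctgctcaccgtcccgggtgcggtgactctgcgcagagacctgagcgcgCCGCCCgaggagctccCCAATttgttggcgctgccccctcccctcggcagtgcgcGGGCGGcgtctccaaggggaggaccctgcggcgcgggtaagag

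The Col4a1 and Col4a2 genes point away from each other, with RefSeq starts 21 bases apart, and their windows overlap by 78 bases. RefSeq gave 38 windows for 35 of the 44 collagen genes. The GC box was in 6 of 8 fibrillar, 4 of 5 collagen IV and 13 of 25 other windows, against 35.7% of the 32851 windows of all genes. The CCAAT box was in 3 of 8 fibrillar, 3 of 5 collagen IV and 7 of 25 other windows, against 37.4% of all windows, and the TATA box in 2 of 8, 0 of 5 and 3 of 25, against 13.6%. Some members have more than 1 start and so more than 1 window, and a match of letters is a description of the sequence only.

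Libraries held 12100784 to 19455470 gene counts, so that 3 counts, the most that an observed 0 allows, stood for 0.131 to 0.350 CPM (gene counts scaled to a common library size by the TMM method), for counting error only. All 5 B cell and all 5 red pulp macrophage markers of the spleen were detected in every library, with B cell markers at 46.6 and 722 CPM in sum in irradiated mutants, 414 and 897 in irradiated wild type, 1429 and 1461 in unirradiated mutants and 2218 and 2807 in unirradiated wild type. All 4 irradiated libraries had Xist at 1029 to 1776 CPM and 0 counts of 4 Y-linked genes, while all 4 unirradiated libraries had Y-linked transcripts and at most 6 counts of Xist. Irradiation, day and sex-linked expression therefore changed together, and their parts in any irradiation difference cannot be told apart. The labels leave unsaid if both samples of a group are from different mice, so the p-values speak only of the spread among these libraries, which can be technical.

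Of the 44 collagen genes, 37 passed the filter on low counts and were tested: 8 of 11 fibrillar, 6 of 6 collagen IV and 23 of 27 other genes. The 7 that did not pass were Col2a1, Col9a1, Col10a1, Col11a1, Col19a1, Col24a1 and Col25a1, among them the chains of the cartilage collagens II and X. They had 4 to 37 counts each over all libraries, and of the 37 counts of Col24a1, a fibrillar chain, 33 came from 1 library, irradiated mutant sample 2. Of the 37 genes tested, 24 were at the count level of the filter (0.634 CPM) in all 8 libraries and 30 in at least 1 library of every group. The 2 that reached it in irradiated libraries alone were Col9a2 and Col4a6. In TMM-scaled CPM, Col4a3 and Col8a1 also stayed below 0.634 in all unirradiated libraries, at no more than 0.615 and 0.572. Since a gene can pass through the groups where it is high, the main counts over the 37 are given below beside those of the 19 collagens with a mean of at least 5 CPM over all libraries.

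**Figure D1:**
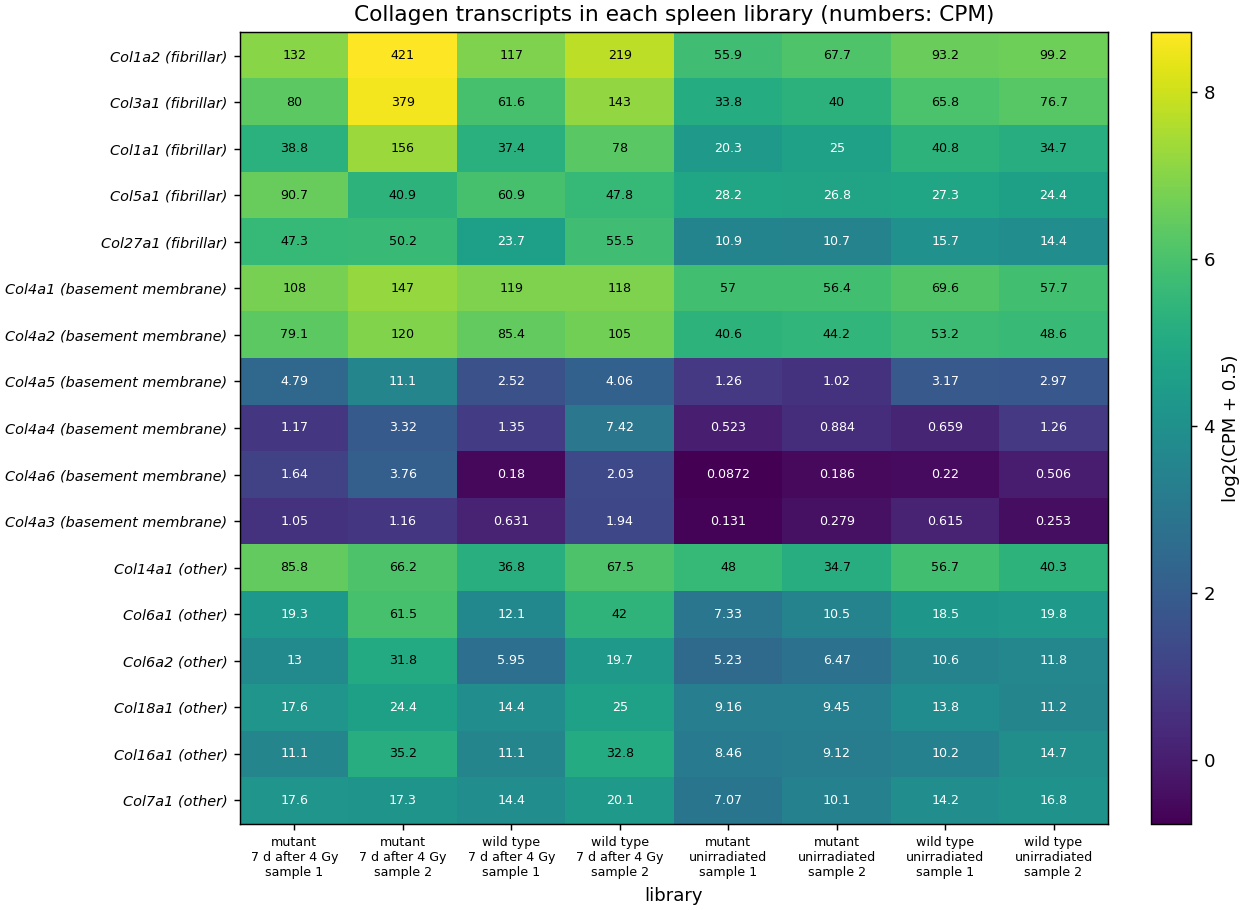
Levels of 17 collagen genes (5 fibrillar, 6 collagen IV and 6 others with the highest level per length) in each of the 8 spleen libraries, as colour on a log2(CPM + 0.5) scale with the CPM printed in each cell. The second irradiated mutant sample holds the highest Col1a2 (421 CPM) and Col3a1 (379 CPM), and the Col4a1 row is brighter in all 4 irradiated libraries (108 to 147 CPM) than in the unirradiated ones (56.4 to 69.6 CPM).

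Per kilobase of the principal coding transcript, the collagens were led, over all libraries, by 2 fibrillar and 2 collagen IV chains. Averaged over the 8 libraries, Col1a2, the α2 chain of type I collagen, was at 28.2 CPM per kb, and Col3a1, the chain of the type III collagen of reticular fibres, at 19.8. Col4a1 and Col4a2, the α1 and α2 chains of the common form of collagen IV, followed at 13.8 and 11.2. Col14a1, a fibril-associated collagen, and Col1a1, the α1 chain of type I, were next at 9.59 and 9.08 CPM per kb. The order of the leading genes depended on the length used: with the union of all exons as length, Col4a1 came first, followed by Col1a2 and then Col3a1. It also differed between groups: in unirradiated mutants, Col1a2 at 11.5 and Col4a1 at 8.57 CPM per kb were followed by Col14a1 at 7.28, ahead of Col3a1 at 6.63 and Col4a2 at 6.57, and in unirradiated wild type Col14a1 at 8.54 was ahead of Col4a2 at 7.89.

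The ratio of the 2 chains of common collagen IV varied less over the libraries than that of type III collagen to collagen IV. The ratio of Col4a1 to Col4a2 per kb was 1.34 and 1.19 in irradiated mutants, 1.36 and 1.10 in irradiated wild type, 1.37 and 1.24 in unirradiated mutants and 1.27 and 1.16 in unirradiated wild type. That of Col3a1 to Col4a1 was 0.88 and 3.07 in irradiated mutants, 0.61 and 1.44 in irradiated wild type, 0.70 and 0.84 in unirradiated mutants and 1.12 and 1.58 in unirradiated wild type. The ratio of Col4a1 to Col4a2 overlapped between all groups. The ratio of Col3a1 to Col4a1 in unirradiated mutants lay below that in irradiated mutants and in unirradiated wild type, the 2 irradiated groups overlapped, and sample 2 was above sample 1 in each group. Type I collagen is known as a trimer with more α1 than α2 chains, yet Col1a1 was below Col1a2 per kb in every library, at 0.26 to 0.40 of its level, and at 0.56 to 0.83 with the union of exons as length. How far counting over multiply mapped or uneven reads enters these ratios was not tested.

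Summed over a class in TMM-scaled CPM, fibrillar and collagen IV transcripts were higher in irradiated than in unirradiated libraries. The spread was widest in the fibrillar class. Fibrillar collagens summed to 418 and 1109 CPM in irradiated mutants, 323 and 579 in irradiated wild type, 171 and 192 in unirradiated mutants and 273 and 282 in unirradiated wild type. Collagen IV genes summed to 196 and 286 CPM in irradiated mutants, 209 and 238 in irradiated wild type, 99.6 and 103 in unirradiated mutants and 127 and 111 in unirradiated wild type. In both classes every irradiated library was above every unirradiated library in these scaled values, and both unirradiated mutant libraries were below both of wild type. TMM factors, which bear on this order, were 0.706 to 1.08 in irradiated and 1.07 to 1.19 in unirradiated libraries. Of unscaled counts, all collagens made 0.0595% and 0.190% in irradiated mutants and 0.0568% and 0.104% in irradiated wild type. They made 0.0468% and 0.0471% in unirradiated mutants and 0.0674% and 0.0609% in unirradiated wild type. In this share, sample 1 of each irradiated group lay below unirradiated wild type. The other collagens summed to 230.2 and 374 CPM in irradiated mutants, 152 and 295 in irradiated wild type, 125 and 120.3 in unirradiated mutants and 176 and 174 in unirradiated wild type, so that the first irradiated wild-type sample lay below unirradiated wild type. The level per kb of all fibrillar over that of all collagen IV genes was 2.26 and 4.46 in irradiated mutants, 1.67 and 2.74 in irradiated wild type, 1.87 and 2.06 in unirradiated mutants and 2.40 and 2.86 in unirradiated wild type. In whole spleen, a changed share of cells that make collagen and a changed level of collagen RNA per cell cannot be told apart, in either direction. That share also depends on other cells, such as B cells, whose markers were lower in all irradiated libraries.

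**Figure D2:**
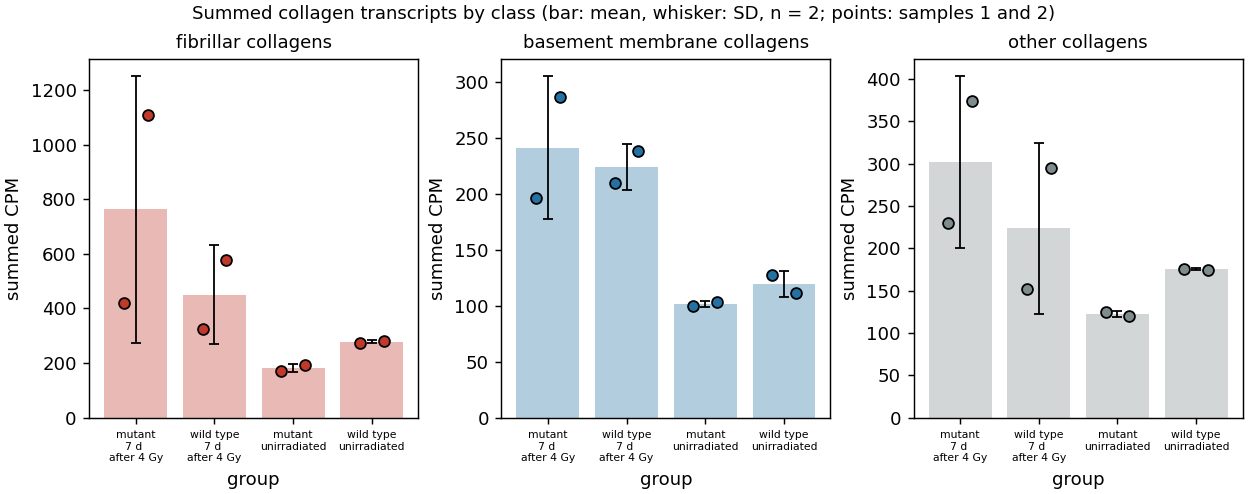
Summed CPM of the fibrillar, collagen IV (basement membrane) and other collagens per group, with bars at the mean, whiskers at 1 SD (n = 2) and points for samples 1 and 2. Means ± SD of the fibrillar sum are 763 ± 488 in irradiated mutants, 451 ± 180.4 in irradiated wild type, 182 ± 14.9 in unirradiated mutants and 278 ± 6.24 in unirradiated wild type, whereas those of collagen IV are 241 ± 63.8 in irradiated mutants, 224 ± 20.4 in irradiated wild type, 101 ± 2.44 in unirradiated mutants and 119 ± 11.4 in unirradiated wild type.

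Without irradiation, nearly all collagens were at lower fitted levels in mutant than in wild-type spleens, in all 3 classes, though no gene passed the test in the fit of all 8 libraries. Col3a1 had 33.8 and 40.0 CPM in unirradiated mutants, against 65.8 and 76.7 in unirradiated wild type. Col1a2 had 55.9 and 67.7 CPM in unirradiated mutants, against 93.2 and 99.2 in unirradiated wild type, and Col1a1 20.3 and 25.0 against 40.8 and 34.7. For all 3 the mutant libraries lay below the wild-type libraries without overlap. Among filament-forming collagens, Col6a1, a chain of the beaded filaments of type VI collagen, had 7.33 and 10.5 CPM in mutants against 18.5 and 19.8 in wild type, and its partner Col6a2 had 5.23 and 6.47 against 10.6 and 11.8. Col4a5, a collagen IV chain known from kidney and smooth muscle basement membranes, had 1.26 and 1.02 CPM in mutants against 3.17 and 2.97 in wild type. Col4a1, the abundant collagen IV chain, differed less, with 57.0 and 56.4 CPM in mutants against 69.6 and 57.7 in wild type. Col5a1, a fibrillar chain that starts and limits fibres, was the exception among tested collagens, with 28.2 and 26.8 CPM in unirradiated mutants against 27.3 and 24.4 in unirradiated wild type.

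By edgeR's quasi-likelihood test with Benjamini-Hochberg adjustment over 17327 genes, 0 of the 37 collagens were higher and 0 lower in unirradiated mutants, where 0.0% of all genes were called in either direction. At an unadjusted p under 0.05 there were 2 collagens. DESeq2 (0.377% of the 15647 genes with an adjusted p called higher, 0.00639% lower) and limma-voom (0.0% in either direction) called 0. DESeq2 gave no adjusted p for Col4a3, Col6a6, Col8a1, Col9a2 and Col22a1, which it therefore could not call. The fitted log2 fold change was below 0 for 36 of 37 collagens, with a median of -0.59 (0.666-fold), against 53.1% of all genes and a median of -0.03. Medians were -0.60 in the fibrillar class (7 of 8 below 0), -0.76 in collagen IV (6 of 6) and -0.59 in the others (23 of 23), and 18 of the 19 collagens with a mean of at least 5 CPM were below 0. Both mutant libraries lay below both wild-type libraries for 25 of 37 collagens (7 fibrillar, 4 collagen IV and 14 others), against 25.0% of all genes, and above them for 0, against 20.8%. Of the 19, mutants lay below for 16. Without 1 of the unirradiated libraries the collagen IV median ran between -1.07, without unirradiated mutant sample 2, and -0.43, without unirradiated mutant sample 1. The abundant chains Col4a1 and Col4a2 had -0.17 and -0.26 in the fit of all libraries. In a fit of the unirradiated libraries alone, where Col4a3 and Col4a6 were not tested, the collagen IV median was -0.32 over 4 genes. The medians of that fit were -0.58 for fibrillar and -0.62 for other collagens. Genes of a tissue move together, so these counts are not independent observations.

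When the unirradiated libraries were fitted alone, Col3a1 and Col6a1 fell in mutants, 2 of the 32 collagens then tested, where 0.546% of all genes were called lower and 2.27% higher. The log2 fold change of Col3a1 was -0.92 ± 0.16 (SE, adjusted p = 0.0128, edgeR) and that of Col6a1 -1.08 ± 0.22 (adjusted p = 0.0300, edgeR). Both were lower in 2 of 2 mutant libraries. In the fit of all libraries the same genes had -0.95 ± 0.68 and -1.10 ± 0.67, with adjusted p = 1.0 for each by edgeR. That fit gave a common dispersion of 0.152, against 0.0255 among unirradiated libraries alone. Both calls were lost without unirradiated mutant sample 1 (edgeR adjusted p = 0.0625 for Col3a1 and 0.157 for Col6a1), and 9 collagens were called without unirradiated wild-type sample 1 and 4 without unirradiated wild-type sample 2. Markers of smooth muscle and capsule (7 of 7 detected in every library) summed to 77.5 and 91.3 CPM in unirradiated mutants against 138 and 152 in unirradiated wild type, those of mesothelium (6 of 6) to 16.1 and 21.1 against 24.4 and 58.8, and those of fibroblastic stroma (8 of 8) to 271 and 314 against 312 and 455. Endothelial markers (8 of 8) summed to 297 and 304 against 347 and 365, and fat markers to 5.5 and 49.2 (6 and 7 of 7 detected) against 10.9 and 121 (6 and 7 of 7, Lep at 0 counts in the first sample of each genotype). The part of these cells in the collagen differences was not tested.

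**Figure D3:**
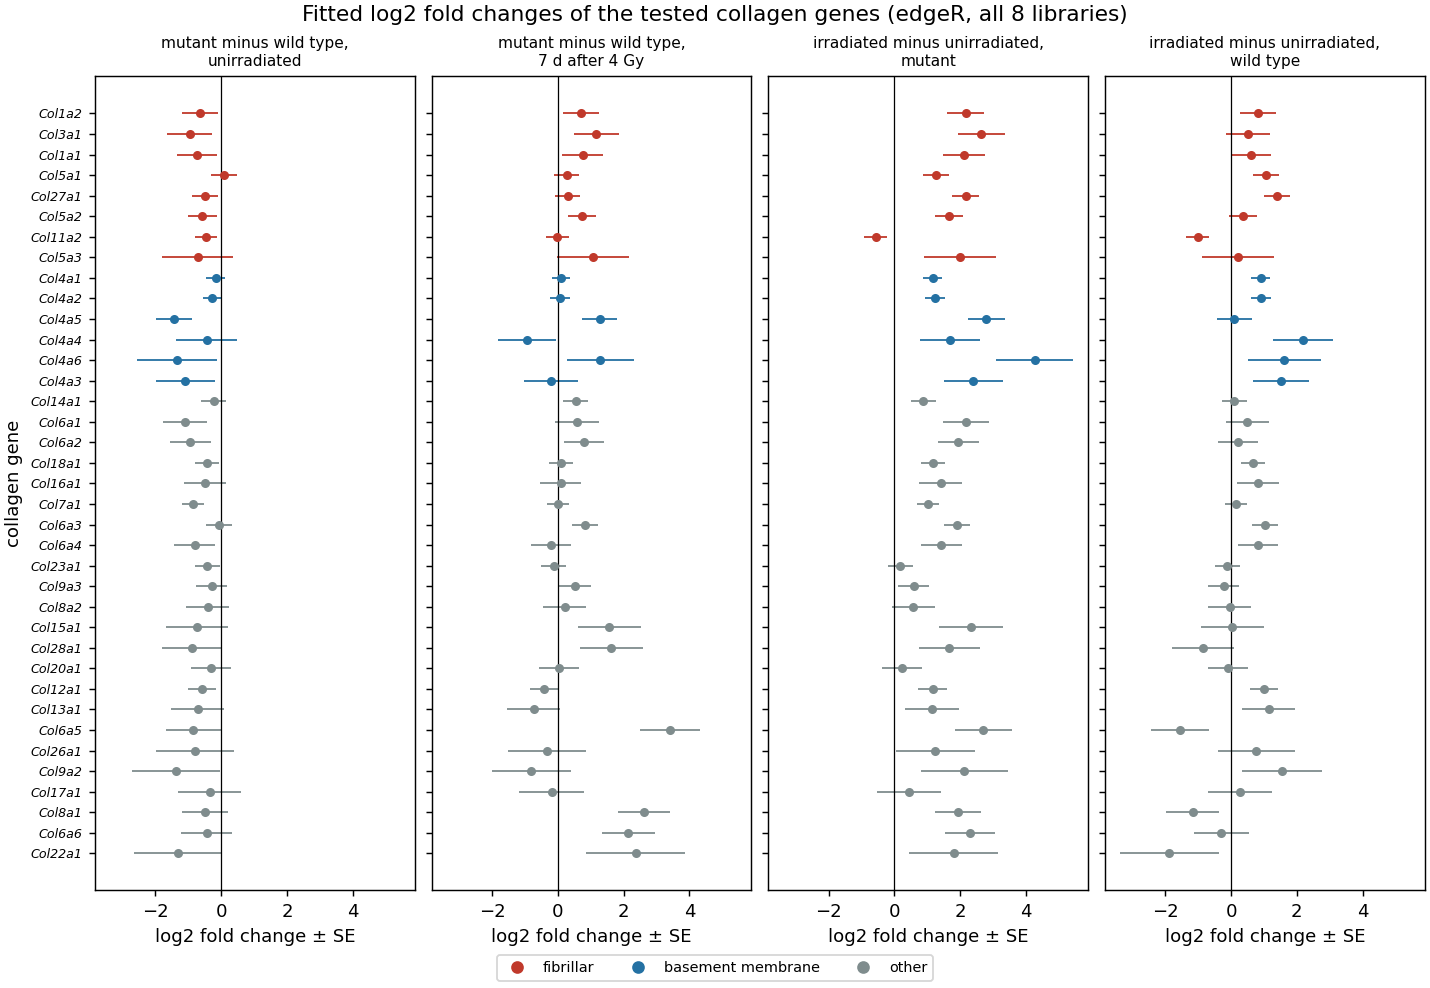
Fitted log2 fold changes with SE of the 37 tested collagens in 4 comparisons, grouped as fibrillar, basement membrane (collagen IV) and other, from the edgeR fit of all 8 libraries on 1 shared axis. In unirradiated spleens 36 of 37 points lie left of 0, and after irradiation of mutants 36 lie right of it, with Col11a2 the exception.

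After irradiation of mutants, collagens of all 3 classes were at higher fitted levels than in unirradiated mutants, and again none passed the test in the fit of all libraries. Col27a1, a fibrillar chain known from cartilage, had 47.3 and 50.2 CPM in irradiated mutants against 10.9 and 10.7 in unirradiated mutants, and its irradiated samples were alike. Col4a1 had 108 and 147 CPM in irradiated against 57.0 and 56.4 in unirradiated mutants, and Col4a2 79.1 and 120.1 against 40.6 and 44.2. For all 3 genes the irradiated libraries lay above the unirradiated ones without overlap. Col1a2 had 132 and 421 CPM in irradiated against 55.9 and 67.7 in unirradiated mutants. Col3a1 had 80.0 and 379 CPM in irradiated against 33.8 and 40.0 in unirradiated mutants, and Col1a1 had 38.8 and 156 against 20.3 and 25.0. For types I and III the first irradiated mutant sample stood within the range of irradiated wild type and the second above every other library. Col5a1 went the other way between samples, with 90.7 and 40.9 CPM in irradiated mutants against 28.2 and 26.8 in unirradiated mutants.

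Of the 37 collagens, edgeR's quasi-likelihood test called 0 higher and 0 lower in irradiated mutants, where 0.254% of all genes were called higher and 0.346% lower. At an unadjusted p under 0.05 there were 22 collagens, limma-voom called 0 (0.248% of all genes higher, 0.358% lower), and DESeq2 called 13 higher (5 fibrillar, 4 collagen IV and 4 others) and 0 lower, where it called 6.3% of all genes higher and 5.02% lower. The smallest adjusted p by edgeR was 0.0713, for Col27a1, with a log2 fold change of 2.17 ± 0.41 (SE). The fitted changes were 1.17 ± 0.29 for Col4a1, 1.23 ± 0.30 for Col4a2, 2.16 ± 0.57 for Col1a2 and 2.64 ± 0.72 for Col3a1, so that the collagen IV pair had the smaller change with the smaller error. In all, 36 of 37 collagens had positive fitted changes, with a log2 median of 1.67, against 56.3% of all genes and a median of 0.15, and 18 of the 19 with a mean of at least 5 CPM were above 0. Class medians were 2.05 for fibrillar, 2.05 for collagen IV and 1.40 for other collagens. The collagen IV changes ran between 1.17, for Col4a1, and 4.26. Their median took in the low-count genes Col4a3 and Col4a6, of which Col4a6 reached the filter level in irradiated libraries alone. Both irradiated mutant libraries lay above both unirradiated ones for 25 of 37 collagens, against 26.9% of all genes, and below for 1, Col11a2, against 25.7%. Of the 19, this was so for 16 and 1. Without irradiated mutant sample 2 the fibrillar median was 0.85 and 4 collagens were called, and without irradiated mutant sample 1 it was 2.71 and 16 were called. Without irradiated mutant sample 2 the medians of collagen IV and of other collagens were 1.35 and 0.66.

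Col11a2, a fibrillar chain of cartilage collagen XI, was the 1 tested collagen whose irradiated libraries lay below the unirradiated ones in both genotypes. It had 7.83 and 6.31 CPM in irradiated mutants against 9.81 and 11.1 in unirradiated mutants, and 6.04 and 8.21 in irradiated wild type against 12.6 and 16.2 in unirradiated wild type. The gene did not pass the test (edgeR adjusted p = 0.366 in mutants and 0.224 in wild type).

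In wild type, the collagen IV pair and several fibrillar genes, Col1a2 among them, were at higher levels after irradiation, though none passed the test. Col4a1 had 119 and 118 CPM in irradiated wild type against 69.6 and 57.7 in unirradiated wild type, and Col4a2 had 85.4 and 105 against 53.2 and 48.6. Col5a1 had 60.9 and 47.8 CPM in irradiated against 27.3 and 24.4 in unirradiated wild type. Col1a2 had 117 and 219 CPM in irradiated against 93.2 and 99.2 in unirradiated wild type. In these 4 genes the groups did not overlap. Col3a1 had 61.6 and 143 CPM in irradiated against 65.8 and 76.7 in unirradiated wild type, so that its groups overlapped, and Col27a1 had 23.7 and 55.5 against 15.7 and 14.4. The edgeR test called 0 of 37 collagens higher and 0 lower, where 0.0115% and 0.0462% of all genes were called. At an unadjusted p under 0.05 there were 7, and DESeq2 (2.74% of all genes called higher, 4.23% lower) and limma-voom (0.0115% higher, 0.0173% lower) called 0; the smallest adjusted p by edgeR was 0.180, for Col27a1 (log2 fold change 1.39 ± 0.40, SE). The median log2 fold change of the 37 was 0.50 with 27 above 0, against 0.09 and 54.2% over all genes, and it was 0.57 for fibrillar, 1.21 for collagen IV and 0.15 for other collagens. The collagen IV changes ran between 0.10 and 2.20, and their median again took in the low-count genes Col4a3 and Col4a6. Without irradiated wild-type sample 2 these class medians were -0.03 for fibrillar, 0.49 for collagen IV and -0.41 for other collagens, and without irradiated wild-type sample 1 they were 0.99, 1.56 and 0.48. Of the 19 collagens with a mean of at least 5 CPM, 17 were above 0, with a median of 0.66. Irradiated libraries lay above unirradiated ones for 14 of 37 collagens, against 29.7% of all genes, and below for 5 (Col6a5, Col8a1, Col11a2, Col22a1 and Col28a1), against 27.8%. Of the 19, this was so for 10 and 1. Without irradiated mutant sample 1, or without sample 2, 4 collagens were called in wild type, and 0 of 34 in the fit of the wild-type groups alone. The cause was not tested.

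Between the genotypes after irradiation, fitted collagen levels were mostly higher in mutants rather than lower, and the groups overlapped for most of the abundant genes. Col3a1 had 80.0 and 379 CPM in irradiated mutants against 61.6 and 143 in irradiated wild type, Col4a1 had 108 and 147 against 119 and 118, and Col14a1 had 85.8 and 66.2 against 36.8 and 67.5. Col6a5, a further type VI chain, had 2.92 and 18.7 CPM in irradiated mutants against 0.631 and 1.41 in irradiated wild type, and Col6a3, the long chain of the common type VI trimer, had 18.6 and 34.5 against 11.8 and 18.4. In both of these chains the mutant libraries lay above those of wild type. The edgeR test called 0 of 37 collagens in either direction, where 0.0% of all genes were called. At an unadjusted p under 0.05 there were 4, and limma-voom called 0 (0.0% of all genes in either direction). DESeq2 called 1 higher, Col6a5, and 0 lower, where it called 0.447% of genes higher and 0.0192% lower. These shares are of the 15647 genes with a DESeq2 adjusted p. Col4a3, Col6a6, Col8a1, Col9a2 and Col22a1 had none and could not be called by it. Col6a5 had a log2 fold change of 3.43 ± 0.90 by DESeq2 (SE, adjusted p = 0.0345) and 3.41 ± 0.92 by edgeR (adjusted p = 0.986), and over all alternatives its adjusted p ran between 0.000394 and 1.0. The fitted log2 fold change was above 0 for 27 of 37 collagens, with a median of 0.30, against 51.6% of all genes and a median of 0.02. Libraries did not overlap, with mutants higher, for 5 of 37 (Col4a5, Col6a3, Col6a5, Col6a6 and Col8a1), against 10.4% of all genes, and with mutants lower for 0, against 7.46%. Of the 19 collagens with a mean of at least 5 CPM, 15 were above 0 and 1 was higher in mutants without overlap. Class medians were 0.73 for fibrillar, 0.09 for collagen IV and 0.21 for other collagens. Without irradiated mutant sample 2 all 3 were below 0, at -0.24 for fibrillar, -0.26 for collagen IV and -0.22 for other collagens. Without irradiated wild-type sample 2 they were 1.24 for fibrillar, 0.78 for collagen IV and 1.06 for other collagens, and without irradiated mutant sample 1 the fibrillar median was 1.37.

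The difference of the irradiation effects, mutant minus wild type, was above 0 for 35 of 37 collagens, but shares the libraries of the comparisons above and is no separate evidence. Its median was 0.81 on the log2 scale, against 0.05 over all genes with 54.2% above 0. Class medians were 1.33 for fibrillar, 0.61 for collagen IV and 0.77 for other collagens, and 19 of the 19 collagens with a mean of at least 5 CPM were above 0. Without irradiated mutant sample 2 the medians were 0.49 for fibrillar, 0.34 for collagen IV and 0.50 for other collagens, and Col3a1 had 0.51. Without irradiated wild-type sample 2 they were 1.88 for fibrillar, 1.55 for collagen IV and 1.29 for other collagens. The lowest collagen IV median was 0.19, without unirradiated wild-type sample 1. The difference was 2.12 ± 0.97 (SE) for Col3a1, 0.27 ± 0.40 for Col4a1 and 0.33 ± 0.42 for Col4a2. The edgeR test called 0 of 37 collagens higher or lower, where 0.0% of all genes were called, and DESeq2 (0.00577% of all genes higher, 0.0173% lower) and limma-voom (0.0%) called 0. At an unadjusted p under 0.05 there were 3 collagens, among them Col4a5 (2.69 ± 0.77) and Col6a5 (4.26 ± 1.23).

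The 2 irradiated samples of a group differed by over 2-fold for a larger share of the 37 collagens than of all genes. For the abundant collagens, the share in plain CPM was close to that of all genes. In irradiated mutants, sample 2 over sample 1 was 4.74-fold for Col3a1, 4.02-fold for Col1a1 and 3.19-fold for Col1a2, but 1.35-fold for Col4a1, 1.52-fold for Col4a2, 0.771-fold for Col14a1 and 0.451-fold for Col5a1. In irradiated wild type the same ratios were 2.32 for Col3a1, 2.08 for Col1a1, 1.87 for Col1a2, 0.991 for Col4a1, 1.22 for Col4a2, 1.83 for Col14a1 and 0.784 for Col5a1. Types I and III thus stood higher in sample 2 of both irradiated groups and Col5a1 lower in both. Col4a1 and Col4a2 differed less than types I and III in both groups, and Col14a1 differed in direction between the groups. Over all 6 collagen IV genes, sample 2 was the higher for 6 in irradiated mutants and for 5 in irradiated wild type. In CPM + 0.5, the samples differed by over 2-fold for 54.1% of collagens in irradiated mutants and 43.2% in irradiated wild type, against 37.7% and 21.2% of all genes, and for 0 of 37 collagens in either unirradiated group. In plain CPM the counts of 37 were 22 in irradiated mutants, 18 in irradiated wild type, 4 in unirradiated mutants and 6 in unirradiated wild type, against 44.7%, 29.3%, 6.38% and 8.75% of all genes in these groups. Of the 19 collagens with a mean of at least 5 CPM, 9 (47.4%) differed by over 2-fold in irradiated mutants and 6 (31.6%) in irradiated wild type. In either unirradiated group it was 0, and these counts held on both scales. In plain CPM the shares of the 19 were thus near the 44.7% and 29.3% of all genes. The second irradiated mutant library was the highest of the 8 for 20 of 37 collagens, against 19.0% of all genes, and the first unirradiated mutant library the lowest for 16 of 37, against 11.5%.

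Markers of other tissues, and of the spleen's own capsule and stroma, were examined beside this split. Fat markers summed to 83.0 and 946 CPM in irradiated mutants (7 of 7 detected in each), 13.1 and 102 in irradiated wild type (4 and 7 of 7), 5.5 and 49.2 in unirradiated mutants and 10.9 and 121 in unirradiated wild type. Adipoq, which defines fat cells, was at 0 counts in the first irradiated wild-type library, with Cidec and Lep. Mesothelium markers summed to 78.6 and 166 CPM in irradiated mutants and 25.5 and 123 in irradiated wild type, those of smooth muscle and capsule to 110 and 212 in mutants and 114 and 221 in wild type, and those of fibroblastic stroma to 199.95 and 1224 in mutants and 299 and 602 in wild type. The stromal chemokine Ccl21a was at 0 counts in irradiated mutant sample 1. In all 4 sums the second sample of each irradiated group was the higher, as for types I and III collagen. By gene, sample 2 was the higher for 6 of 7 fat, 6 of 6 mesothelium, 8 of 8 stromal and 5 of 5 B cell markers in each irradiated group. Of 7 smooth muscle and capsule markers it was the higher for 3 in irradiated mutants and 7 in irradiated wild type. In both unirradiated groups sample 2 was the higher for 7 of 7 fat markers too. There, sample 2 over sample 1 was only 0.849 to 1.23 for Col1a1, Col1a2 and Col3a1. Liver markers summed to 464 and 55.1 CPM in irradiated mutants and 88.9 and 93.2 in irradiated wild type (7 of 7 detected in each), with at most 0.605 CPM in unirradiated libraries, where Alb, Fgb, Apoc3 and Ahsg had 0 counts. The part of these cells and tissues in the collagen levels was not tested.

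**Figure D4:**
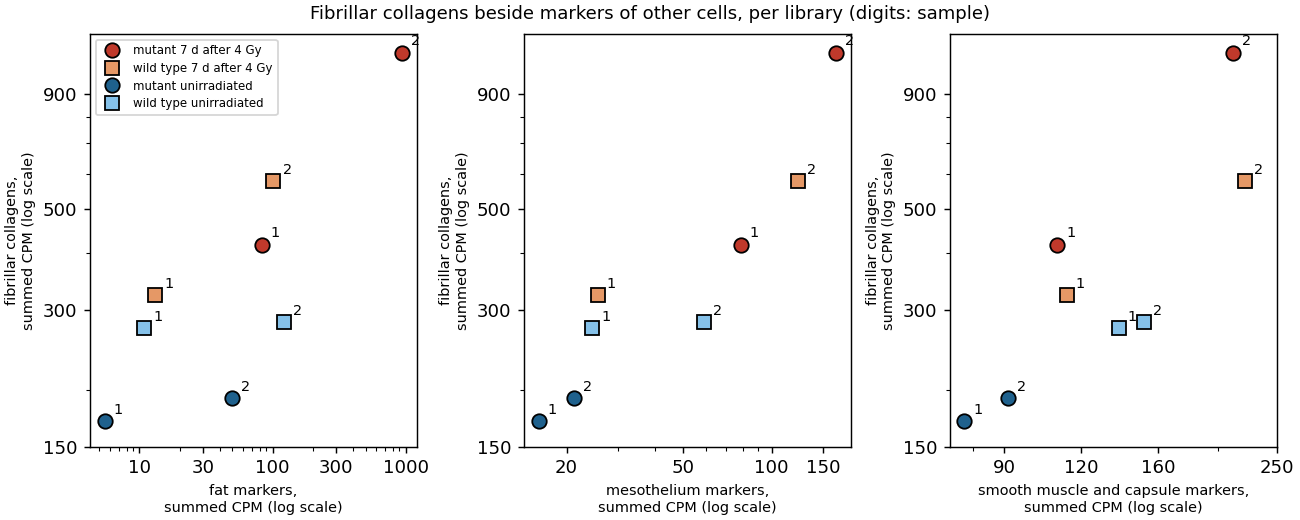
Summed CPM of fibrillar collagens (log scale) against summed CPM of markers of fat, mesothelium, and smooth muscle and capsule (log scale), 1 point per library, with digits for the sample number and colours for the group. The second irradiated mutant library has the highest fibrillar sum (1109 CPM) beside the highest fat (946 CPM) and mesothelium (166 CPM) sums, and the unirradiated mutants have the lowest fibrillar sums (171 and 192 CPM).

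Genes that work with collagens were examined in 6 lists. Of the 4 tested crosslinking enzymes of the lysyl oxidase family, which join collagen and elastin chains, 0 passed the test of all libraries in any comparison; 3 of 4 were below 0 in unirradiated mutants (median log2 fold change -1.07) and 4 of 4 above 0 in irradiated against unirradiated mutants (median 2.32). Loxl1 had 5.89 and 6.38 CPM in unirradiated mutants against 15.9 and 16.2 in unirradiated wild type and, in the fit of unirradiated libraries alone, fell by 1.36 on the log2 scale (SE 0.21, edgeR adjusted p = 0.00623). Lox had 15.1 and 32.7 CPM in irradiated mutants against 1.44 and 2.33 in unirradiated mutants (edgeR adjusted p = 0.0713), and Loxl2 had 11.4 and 16.6 against 2.22 and 2.89 (edgeR adjusted p = 0.0507). For both enzymes the irradiated mutant libraries lay above the unirradiated ones, and neither gene passed the test.

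Partners of fibrils, such as the small proteoglycan decorin (Dcn), showed 10 of 10 genes below 0 in unirradiated mutants against wild type (median log2 fold change -0.66) and 10 of 10 above 0 in irradiated against unirradiated mutants (median 1.90). Basement membrane partners, such as laminins and nidogens, showed 13 of 15 below 0 (median -0.36) and 14 of 15 above 0 (median 1.26) in the same 2 comparisons. Nid1, a linker of laminin and collagen IV, had 98.8 and 107 CPM in irradiated mutants against 48.7 and 37.0 in unirradiated mutants (edgeR adjusted p = 0.0959). No gene of these lists passed the test of all libraries in any of the 5 comparisons. Enzymes and chaperones that fold and modify collagen chains had 13 of 18 below 0 in unirradiated mutants (median -0.25), against 53.1% of all genes. In irradiated mutants 12 of 18 were above 0 (median 0.89), against 56.3% of all genes. Procollagen-cleaving genes had 3 of 6 below 0 (median -0.04) and 4 of 6 above 0 (median 0.60), with 0 called in both lists in the fit of all libraries. In the fit of the wild-type groups alone, Ppib of the folding list fell with irradiation by 1.34 on the log2 scale (SE 0.31, edgeR adjusted p = 0.0407). Lamb3, a laminin chain, fell by 2.33 (SE 0.50, edgeR adjusted p = 0.0319). That fit called 531 of 15902 genes lower.

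Among 10 tested collagen receptors, 5 were above 0 in unirradiated mutants against wild type (median log2 fold change 0.04) and 8 in irradiated against unirradiated mutants (median 0.60). The exception to the lack of calls in the fit of all libraries was Gp6, the collagen receptor of platelets. It fell in irradiated mutants to 1.64 and 0.996 CPM, against 9.81 and 13.8 in unirradiated mutants. Its log2 fold change was -3.19 ± 0.45 (SE, edgeR adjusted p = 0.0344, lower in 2 of 2 libraries), and over all alternatives its adjusted p ran between 8.6e-06 and 0.321. The call was lost when any 1 of the unirradiated libraries or of the irradiated wild-type libraries was left out. Irradiated wild type had 1.35 and 1.24 CPM of Gp6 against 10.2 and 10.9 in unirradiated wild type (edgeR adjusted p = 0.0142 in the fit of the wild-type groups alone).

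Several collagen genes share exonic bases with other annotated genes, and the strand setting of the counting was not given in the sources used here. The shared stretch was 22 bases for Col4a1 and Col4a2 and 563 bases for Col4a3 with an opposite-strand transcript, and 2 opposite-strand transcripts shared 99 and 113 bases with Col5a1. The minor collagen IV genes also lie in head-to-head pairs, Col4a3 with Col4a4 on chromosome 1 with starts 72 bases apart, and Col4a5 with Col4a6 on chromosome X with starts 1309 bases apart. Col4a5 had 4.79 and 11.1 CPM in irradiated mutants, 2.52 and 4.06 in irradiated wild type, 1.26 and 1.02 in unirradiated mutants and 3.17 and 2.97 in unirradiated wild type. Col4a6 had 1.64 and 3.76 CPM in irradiated mutants, 0.180 and 2.03 in irradiated wild type, 0.0872 and 0.186 in unirradiated mutants and 0.220 and 0.506 in unirradiated wild type. Col4a6 was thus the lower of the pair in every library. Col4a3 had 1.05 and 1.16 CPM in irradiated mutants, 0.631 and 1.94 in irradiated wild type, 0.131 and 0.279 in unirradiated mutants and 0.615 and 0.253 in unirradiated wild type. Col4a4 had 1.17 and 3.32 CPM in irradiated mutants, 1.35 and 7.42 in irradiated wild type, 0.523 and 0.884 in unirradiated mutants and 0.659 and 1.26 in unirradiated wild type. In TMM-scaled CPM both were at higher levels in the irradiated than in the unirradiated libraries of their own genotype. In wild type the nearest libraries were almost level, at 0.631 against 0.615 CPM for Col4a3 and 1.35 against 1.26 for Col4a4. Without TMM scaling these 2 orders turn round. Col4a3 had 7 of 13387859 counts against 14 of 19455470, and Col4a4 15 of 13387859 against 20 of 14738248. Col4a3 was close to the level of 3 counts in unirradiated mutants and in unirradiated wild-type sample 2.

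Of the other collagens, the 6 with the highest level per kb differed in how far their samples spread. Col18a1, a basement membrane collagen whose end fragment is endostatin, had 17.6 and 24.4 CPM in irradiated mutants, 14.4 and 25.0 in irradiated wild type, 9.16 and 9.45 in unirradiated mutants and 13.8 and 11.2 in unirradiated wild type. Col16a1, a fibril-associated collagen, had 11.1 and 35.2 CPM in irradiated mutants, 11.1 and 32.8 in irradiated wild type, 8.46 and 9.12 in unirradiated mutants and 10.2 and 14.7 in unirradiated wild type. In both genes the unirradiated mutants were lowest, and the second sample of each irradiated group was the higher. Col7a1, the collagen of anchoring fibrils, had 17.6 and 17.3 CPM in irradiated mutants, 14.4 and 20.1 in irradiated wild type, 7.07 and 10.1 in unirradiated mutants and 14.2 and 16.8 in unirradiated wild type. Its unirradiated mutants lay below the 6 other libraries, which overlapped. Col6a1 had 19.3 and 61.5 CPM in irradiated mutants and 12.1 and 42.0 in irradiated wild type, and Col6a2 had 13.0 and 31.8 in irradiated mutants and 5.95 and 19.7 in irradiated wild type, so that sample 1 of irradiated wild type lay below unirradiated wild type for both. Col14a1 had 48.0 and 34.7 CPM in unirradiated mutants against 56.7 and 40.3 in unirradiated wild type, groups that overlapped.

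The leading members lie across the genome (GRCm38). Col1a2 (ENSMUSG00000029661.16) spans chromosome 6, start 4504814, end 4541544, and Col3a1 (ENSMUSG00000026043.18) chromosome 1, start 45311538, end 45349706, next to Col5a2 on the opposite strand with 24614 bases between them. Col4a1 (ENSMUSG00000031502.11) spans chromosome 8, start 11198423, end 11312826, and Col4a2 (ENSMUSG00000031503.13) chromosome 8, start 11312805, end 11449287. Col1a1 (ENSMUSG00000001506.10) spans chromosome 11, start 94936224, end 94953042, and Col6a1 (ENSMUSG00000001119.7) chromosome 10, start 76708792, end 76726168. The Col3a1 and Col5a2 neighbours were not matched in level, since Col5a2, a type V chain, had 19.3 and 45.5 CPM in irradiated mutants, 16.0 and 23.0 in irradiated wild type, 11.3 and 9.31 in unirradiated mutants and 15.8 and 14.6 in unirradiated wild type.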

How the data were processed

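The authors deposited raw counts, whole numbers of reads assigned to each gene, in 1 table of 8 columns. Trim Galore, Subread and featureCounts were used, per the submitters' processing notes; their versions, the strand setting, the annotation and the handling of multiply mapped reads were not given in the sources used here. Per the labels' protocols, RNA was extracted from frozen spleens with Trizol and made into mRNA libraries. Groups came from the sample titles. The table held 52636 genes, 0 lines naming no gene and 0 columns of no sample. Symbols came from GENCODE M21 (GRCm38) for 52403 identifiers, and 233 had none.

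Genes were kept by filterByExpr (minimum count 10, minimum total 15), leaving 17327. Counts were scaled by TMM and fitted in edgeR 4.0.16 under R 4.3.3, all 8 libraries together with a term per group (4 residual degrees of freedom). Quasi-likelihood F tests were adjusted by Benjamini-Hochberg, with a call at an adjusted p under 0.05. SEs are the absolute log2 fold change over the square root of F. The 5 comparisons were mutant minus wild type without and after irradiation, irradiated minus unirradiated in mutants and in wild type, and the difference of the irradiation effects. Levels per kb divide CPM by the length of the principal coding transcript. Alternatives were DESeq2's size factors, no filter, DESeq2 1.42.0, limma-voom (limma 3.58.1), only the compared groups, a replicate block, each library left out and class definition. Added after the data were seen were leaving out libraries in the fit of unirradiated samples alone, the exon-union length and plain CPM for the spread between samples. The procedure was tested on simulated counts.

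Values in every library are given for members called in any comparison or in the unirradiated fit and for the 5 fibrillar, 6 collagen IV and 6 other members highest per kb. Col5a2, Col6a3, Col6a5 and Col11a2 were described beyond this after their values were seen. Members and lists were chosen with earlier results of these data known. Text on human cell culture in the labels was not used.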

Additional observations from a re-analysis of the deposited data

How the results depend on the processing

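The number of collagens called was 0 in each comparison in the fit of all libraries. It moved to 2 for unirradiated mutants against wild type with only the compared groups fitted. Without the filter on low counts it was 1 for irradiated mutants against wild type, 1 for irradiation in wild type, 12 for irradiation in mutants and 1 for the difference of irradiation effects, and with DESeq2 it was 1 for irradiated mutants against wild type and 13 for irradiation in mutants. With a replicate block, irradiation in mutants gave 1 call, Col27a1 (edgeR adjusted p = 0.0498, between 0.000145 and 0.534 over its alternatives), where 0.785% of all genes were called higher, and the block changed no other count; the labels give equal replicate numbers but do not say that they pair samples, and correlations of same-numbered deviations ran between 0.04 and 0.54. Leaving out 1 library gave 0 to 2 calls for irradiated mutants against wild type, 0 to 4 for irradiation in wild type and 0 to 16 for irradiation in mutants, and 0 to 9 in the fit of unirradiated libraries alone. Where this left a group with 1 sample, that sample was assumed to vary like the others. Leaving out 1 library turned the sign of log2 fold changes of Col14a1 between unirradiated groups (-0.49 to 0.037), of Col3a1 (-0.41 to 1.93), Col4a1 (-0.19 to 0.35) and Col4a2 (-0.33 to 0.38) between irradiated groups, of Col3a1 with irradiation in wild type (-0.23 to 0.99), and of Col4a1 (-0.046 to 0.49) and Col4a2 (-0.083 to 0.62) in the difference of irradiation effects. Class medians that changed sign stand beside their comparisons. The causes were not tested. The 2 libraries per group and a spread shared by irradiated and unirradiated groups limit what can be called.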
